A study of Mus musculus with 8 samples.

Results

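The genes described here are 10 regulators of the G1 phase of the cell cycle and of growth, taken from a table of 19950 genes by their symbols: the cyclin-dependent kinase inhibitors Cdkn1a, Cdkn1b and Cdkn2c, the D cyclins Ccnd1, Ccnd2 and Ccnd3, the E cyclin Ccne1, and the MYC family genes Myc, Mycn and Mycl. All 10 were found as 1 row each, and all 10 were among the 15600 genes tested. They were followed across whole mouse embryos at embryonic day 6.5, the onset of gastrulation, profiled by bulk RNA sequencing in 4 embryos of the WT genotype and 4 of the genotype labelled Axin1;Axin2 mutant. The mutant samples are also labelled DKO. What the alleles are, the strain and the litters are not stated in the labels, and no label says that embryos came from separate litters. The p-values therefore cover embryo-to-embryo spread in this set only. Both Axin genes encode scaffolds on which β-catenin is marked for destruction, which restrains canonical WNT signalling.

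D cyclins bind CDK4 and CDK6 and, with cyclin E and CDK2, inactivate the RB family so that E2F factors can start DNA replication. Proteins of the CIP/KIP class, p21 from Cdkn1a and p27 from Cdkn1b, bind cyclin-CDK complexes, whereas p18 from Cdkn2c binds CDK4 and CDK6 alone. The MYC proteins dimerise with MAX and activate genes of growth and ribosome production. In the mouse epiblast before and during gastrulation the cycle is very short. Myc and Ccnd1 are widely used as WNT target genes, and Cdkn1a is the best known target of the tumour suppressor p53.

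Values are gene counts that the authors scaled by 1 size factor per library, called scaled counts here, and replicates carry the column numbers 1, 2, 4 and 5. Reads assigned to genes ranged from 26615732 to 36778164 per library, and the lowest count of any of the 10 genes was 54 reads, in Cdkn2c. Axin1 ranged from 2963 to 5274 in WT and from 1721 to 2203 in the mutants, and Axin2 from 236 to 310 in WT and from 303 to 539 in the mutants. Y-linked transcripts were present in 6 libraries, those of each mutant and of WT replicates 1 and 4. The 8 epiblast markers summed to 121181 to 133367 in WT and 29352 to 41971 in the mutants, and 10 mesoderm markers to 16121 to 24677 and 37612 to 52671. The mesoderm markers did not all move alike. By the limma comparison given below 5 of the 10 passed as higher and 0 as lower, against 8.03% and 7.55% of all genes. Eomes averaged 7314 in WT and 4388 in the mutants, and Mesp1 636 and 642. Visceral endoderm and trophoblast markers were present in each library. Prl8a2, a prolactin family gene of the maternal decidua, was at 6283 in mutant replicate 4 and 6056 in mutant replicate 5, against 21.7 to 1129 in the other 6 libraries. In bulk samples fewer cells of a type and less RNA per cell cannot be told apart.

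Sequence upstream of 2 of the genes, Cdkn1a and Mycn, is shown because each holds a paired CATG or an E2F word as given below. Whether these words have a part in the values of either gene was not tested. Windows of 250 bases before annotated starts came from RefSeq on GRCm38.p6, which matched 7 of the 10 genes. There was no entry for Ccnd1, Ccnd2 or Myc. Bases inside an annotated exon of the gene are left off, and letters are given 5′ to 3′ on the strand of the gene. In Cdkn1a the capitals mark CATGNNNNNNCATG, the core of a p53 response element with its usual spacing, read alike on both strands. In Mycn they mark the E2F words TTTGGCGC and TTTCGCGC on either strand, which overlap at 1 place.
Cdkn1a upstream start, chr17:29090729-29090975, plus strand: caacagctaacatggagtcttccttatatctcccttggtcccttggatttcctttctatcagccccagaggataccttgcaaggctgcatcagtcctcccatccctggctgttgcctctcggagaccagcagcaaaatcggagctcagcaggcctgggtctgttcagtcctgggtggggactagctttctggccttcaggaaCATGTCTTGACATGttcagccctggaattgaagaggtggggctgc
Mycn, chr12:12941915-12942086, minus strand: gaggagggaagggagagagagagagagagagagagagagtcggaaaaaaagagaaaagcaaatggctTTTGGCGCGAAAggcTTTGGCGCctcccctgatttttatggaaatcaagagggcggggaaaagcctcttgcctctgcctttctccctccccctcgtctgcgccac
The paired CATG begins 48 bases before the upstream Cdkn1a start at position 29090979, and the window of the downstream start at 29093769 holds none. Of 32851 windows of this length in the mouse table, 0.49% hold such a pair. TTTGGCGC begins 183 and 168 bases before the Mycn start at 12941836, and TTTCGCGC lies between them on the other strand. TTTGGCGC alone is found in 0.417% of all windows, at 2 or more places in 0.00609%, and either E2F word in 0.654%. No window of the other matched genes held either E2F word or the paired CATG. Only these exact letters were searched, so sites with other letters would be missed. The TCF/LEF words CTTTGAT and CTTTGAA, searched on both strands and found in 7.48% of all windows, matched once among the 7 genes searched, in Mycn at 14 bases before the start. A match of letters is a description and not a bound site.

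Genotypes were compared with limma on log2(scaled count + 1), with p-values adjusted by Benjamini-Hochberg over all genes tested and a threshold of 0.05. Fold changes are 2 to the power of the log2 difference. Of the 10 genes, Cdkn1a and Ccnd2 rose in the mutants and Ccne1, Mycn and Mycl fell. Cdkn1b, Cdkn2c, Ccnd1, Ccnd3 and Myc did not pass. Of all genes tested, 15.6% passed, 8.03% higher and 7.55% lower. The 5 genes that passed were also the 5 whose WT and mutant values did not overlap, a property of 22.4% of all genes tested. Counts among the 10 can be read against the share of all genes called by each rule. edgeR (8.08% higher, 7.49% lower) and DESeq2 (11.8% and 10.3%, 22.1% in all) on the recovered reads each gave 2 higher and 3 lower, as did median centring (6.6% and 10.2%, 16.8% in all) and the replicate block (5.83% and 5.06%, 10.9% in all). Only the libraries holding Y-linked transcripts (3.38% and 3.16%, 6.54% in all) gave 2 and 2, as did the set without mutant replicates 4 and 5 (4.53% and 4.63%, 9.17% in all). With the mean log2 level of the decidua markers as a covariate (1.81% and 1.43%, 3.24% in all) it was 2 higher and 0 lower. That covariate ran from 4.97 to 6.61 in WT and from 7.33 to 10.6 in the mutants. It separates the genotypes completely, so the level of these markers and genotype cannot be told apart in that fit. Not every marker separates them: Prl8a2 was 135 and 479 in mutant replicates 1 and 2, against 21.7 to 1129 in WT. How much of the covariate is decidual RNA was not tested. The covariate raised the SE of Ccne1 from 0.13 to 0.25, while the log2 fold change went from -0.56 to -0.60. Groups that did not overlap were split evenly, 11.2% of all genes each way.

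**Figure D1:**
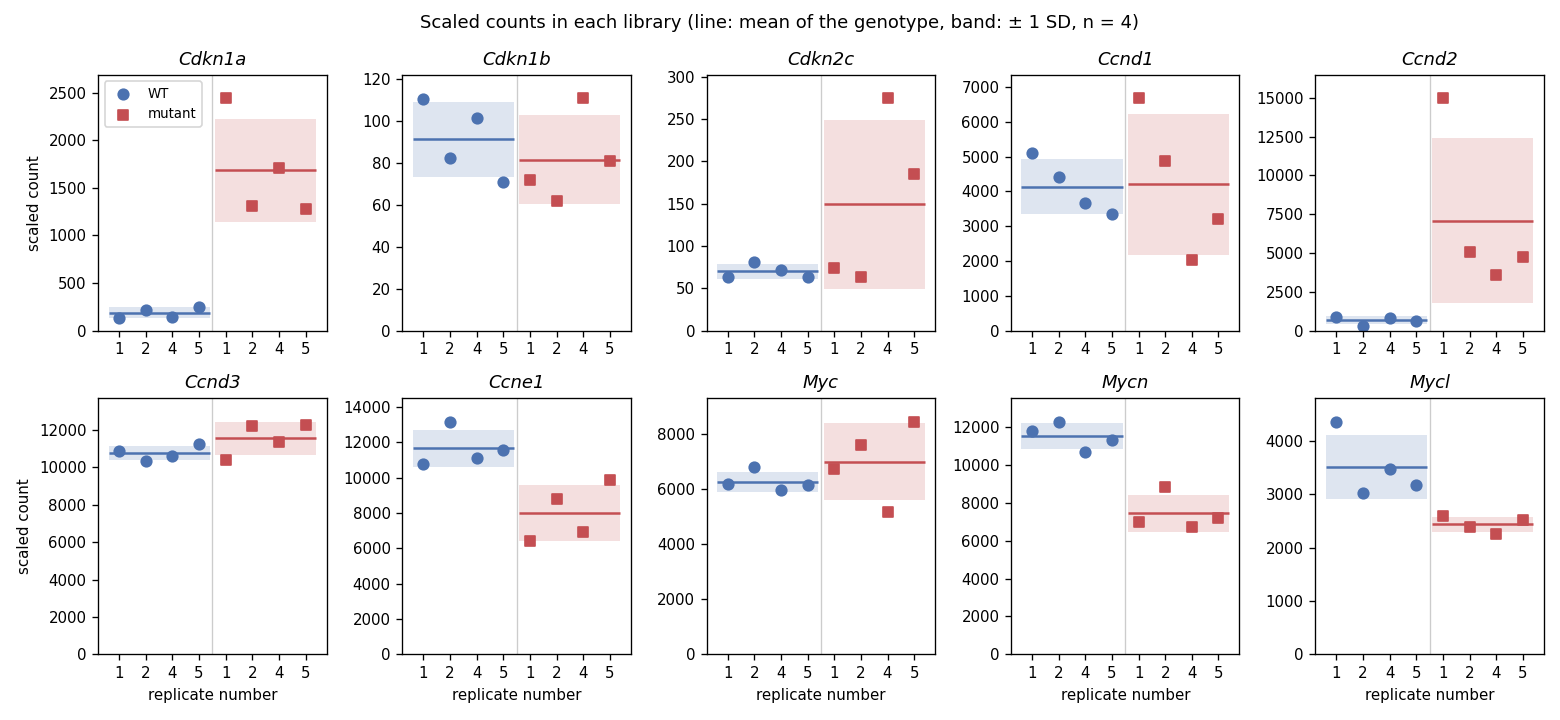
Scaled counts of the 10 genes in each library, with replicate numbers on the x axis, WT as circles and mutants as squares. Lines are genotype means and bands ± 1 SD over 4 libraries. Cdkn1a and Ccnd2 lie higher in every mutant than in any WT library, Ccne1, Mycn and Mycl lie lower, and mutant replicate 1 has the highest Ccnd2 value at 14982.

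Cdkn1a, which encodes the CDK inhibitor p21 (ENSMUSG00000023067.13, chromosome 17, 29090976 to 29100727, plus strand of GRCm38), had scaled counts of 136, 220, 146 and 250 in WT replicates 1, 2, 4 and 5. In the mutants it had 2444, 1309, 1711 and 1274. The lowest mutant value was 5.1 times the highest WT value. The means were 188 ± 55.7 (SD, n = 4) in WT and 1685 ± 544 in the mutants. This was an 8.9-fold rise (log2 fold change 3.15, SE 0.26, limma adjusted p = 0.000149), with a 95% interval of 5.92-fold to 13.4-fold. By p-value Cdkn1a stood in place 59 of the 15600 genes. The WT libraries without Y-linked transcripts, replicates 2 and 5, held the higher WT values, and over the 6 Y-positive libraries the log2 fold change was 3.52 (limma adjusted p = 0.00161, 0.00896 at most over all settings tried).

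Cdkn1b, which encodes p27 (chromosome 6, 134920401 to 134925513, plus strand), was low in both genotypes. It had 110, 82.4, 101 and 71 in WT and 72.2, 61.7, 111 and 81.1 in the mutants. The groups overlapped over nearly their whole range. Its log2 fold change was -0.17 (SE 0.25, limma adjusted p = 0.699), with a 95% interval from -0.74 to 0.39.

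Cdkn2c, which encodes p18 (chromosome 4, 109660876 to 109667189, minus strand), differed widely among the mutants. It had 63.1, 81.5, 71.9 and 63.9 in WT, and 74.3 and 63.5 in mutant replicates 1 and 2. Mutant replicates 4 and 5 had 275 and 185. Its log2 fold change of 0.83 (SE 0.45) did not pass (limma adjusted p = 0.254, 0.0813 to 0.972 over all settings), and without mutant replicates 4 and 5 it was -0.02. These are the libraries with the most Prl8a2. Of the 14 decidua markers 13 were tested and 8 rose, against 8.03% of all genes. The summed level of the 14 was 4963 to 7639 in WT and 22959 to 67283 in the mutants. Igfbp4 alone was 4305 to 5104 in WT and 14382 to 22947 in the mutants. In mutant replicates 1 and 2 Igfbp4 was 22947 and 17057, where the sum was 41407 and 22959. Prl8a2 was 135 and 479 in mutant replicates 1 and 2, within its WT range of 21.7 to 1129. Prl3c1, another decidual prolactin family gene, was 324 and 472 in mutant replicates 4 and 5, 18.3 and 82.9 in replicates 1 and 2, and 161 in WT replicate 1. Lum was at 0 in each WT library and in mutant replicate 1. The part of decidual RNA in the Cdkn2c values was not tested. Des, Col1a1, Col3a1 and Acta2 on that list are also made by embryonic mesenchyme.

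**Figure D2:**
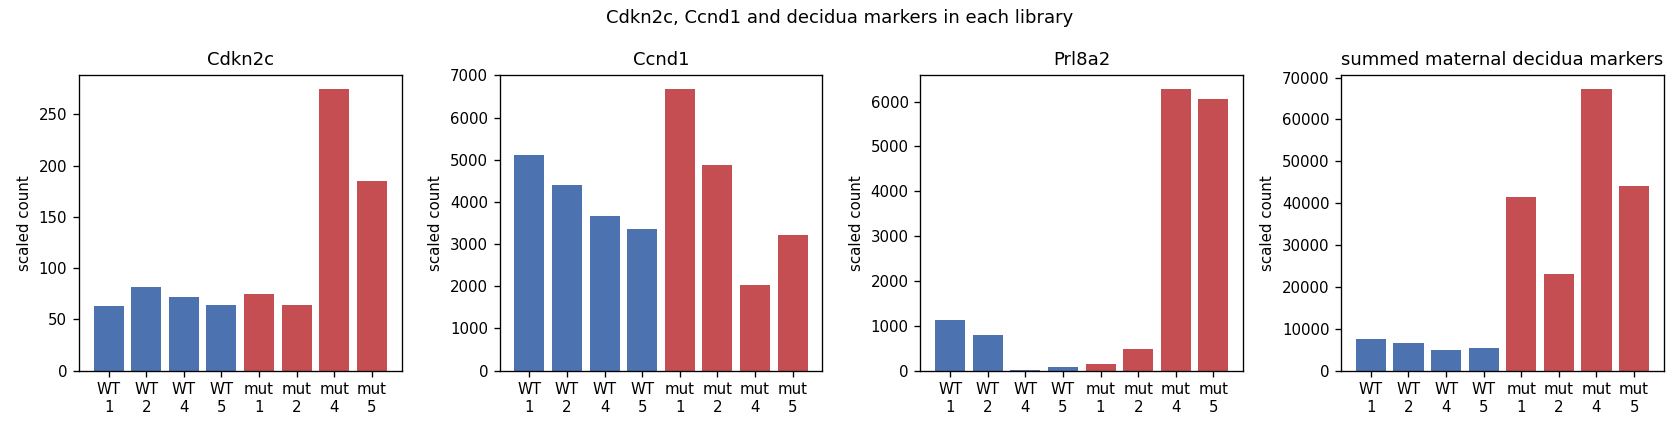
Bars give the scaled count of Cdkn2c, of Ccnd1, of the decidual gene Prl8a2 and of 14 summed maternal decidua markers in each library, WT left and mutants (mut) right. Cdkn2c and Prl8a2 are highest in mutant replicates 4 and 5, and Ccnd1 is lowest in mutant replicate 4.

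The D cyclins behaved differently from one another. Ccnd2, which encodes cyclin D2 (ENSMUSG00000000184.12, chromosome 6, 127125162 to 127152193, minus strand), had 850, 303, 839 and 631 in WT and 14982, 5042, 3552 and 4769 in the mutants. Its lowest mutant value was 4.18 times its highest WT value. Mutant replicate 1 stood well above the other mutants. That library also had the highest summed mesoderm markers (52671) and the lowest summed epiblast markers (29352). Single epiblast markers were split there. Otx2, Fgf5, Utf1, Tdgf1 and Sox2 were lowest of the mutants, and Dnmt3b was not (22775 against 21508 in mutant replicate 4). Pou5f1 (4254 against 1748 to 2923) and Nanog (687 against 333 to 465) were highest of the mutants. Among single mesoderm markers, Foxf1 (11841 against 3535 to 5559 in the other mutants), Hand1 (18013 against 6487 to 10073) and T (2917 against 1675 to 2003) were highest in mutant replicate 1. Eomes (1200 against 4480 to 6257), Mixl1 (8142 against 10759 to 16071), Tbx6 (398 against 486 to 667) and Msgn1 (57.1 against 62.9 to 242) were lowest of the mutants there. Mesp1, Pdgfra and Kdr were neither. WT replicate 2, with the lowest Ccnd2, also stood apart from the other WT libraries in such markers. T (130 against 846 to 1133), Mixl1 (784 against 4833 to 6604) and Mesp1 (5.68 against 658 to 974) were lowest there. Hand1 (5301 against 1592 to 2681) was highest there. The part of such differences in the Ccnd2 values was not tested. The means were 656 ± 256 in WT and 7086 ± 5303 in the mutants (n = 4 each). The rise was 9.82-fold on the log2 scale (log2 fold change 3.30, SE 0.46, limma adjusted p = 0.00182), with a 95% interval of 4.76-fold to 20.3-fold. Dropping mutant replicates 4 and 5 gave a log2 fold change of 3.84, dropping WT replicate 2 gave 2.96, and the decidua covariate gave 4.33. Over the 6 Y-positive libraries it was 2.82 (limma adjusted p = 0.0241, the largest over all settings). Exons of the antisense gene 9330179D12Rik overlap 3.91% of the Ccnd2 exon bases. It averaged 0.946 in WT and 2.84 in the mutants.

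Ccnd1, which encodes cyclin D1 (chromosome 7, 144929931 to 144939925, minus strand), showed no shared direction among the mutants. It had 5103, 4408, 3675 and 3349 in WT and 6679, 4878, 2035 and 3206 in the mutants. The mutants spanned a 3.28-fold range around the WT values, against 1.52-fold among WT. The means were 4134 ± 783 and 4200 ± 2023 (log2 fold change -0.10, SE 0.32, limma adjusted p = 0.881), with a 95% interval from -0.82 to 0.63. Without mutant replicates 4 and 5, where Prl8a2 was highest, the log2 fold change was 0.48 (limma adjusted p = 0.172, 0.172 to 0.989 over all settings). The kit does not keep strand, and exons of LTO1 on the other strand overlap 23.4% of the Ccnd1 exon bases, so reads there cannot be told apart. LTO1 averaged 516 in WT and 622 in the mutants.

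Ccnd3, which encodes cyclin D3 (chromosome 17, 47505051 to 47599691, plus strand), was the least variable of the 10 within WT. It had 10856, 10353, 10605 and 11232 in WT and 10396, 12230, 11378 and 12251 in the mutants. The groups overlapped through mutant replicate 1. Its log2 fold change was 0.10 (SE 0.07, limma adjusted p = 0.345), with a 95% interval from -0.05 to 0.25. Exons of Bysl on the other strand overlap 4.11% of the Ccnd3 exon bases, so reads there cannot be told apart. Bysl averaged 5656 in WT and 5052 in the mutants. The pseudogene Ccnd3-ps averaged 8.07 and 7.86, and how reads matching both it and Ccnd3 were counted is not stated.

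Per kilobase of exon, the makeup of the D cyclin transcripts shifted with Ccnd2. Ccnd2 made up 3.75%, 1.5%, 4.29% and 3.26% of the summed 3 genes in WT replicates 1, 2, 4 and 5. In the mutants it made up 38%, 18.1%, 17.9% and 19.6%. No WT library came near the lowest mutant share. The Ccnd1 share was 34.6% to 44.9% in WT and 20.5% to 34.9% in the mutants, and that of Ccnd3 was 51.3% to 62.2% and 28.2% to 61.6%. The summed per-kilobase level was 2174 ± 163 in WT and 2963 ± 894 in the mutants. Such shares within a library do not depend on its size factor, and no test was made of them.

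**Figure D3:**
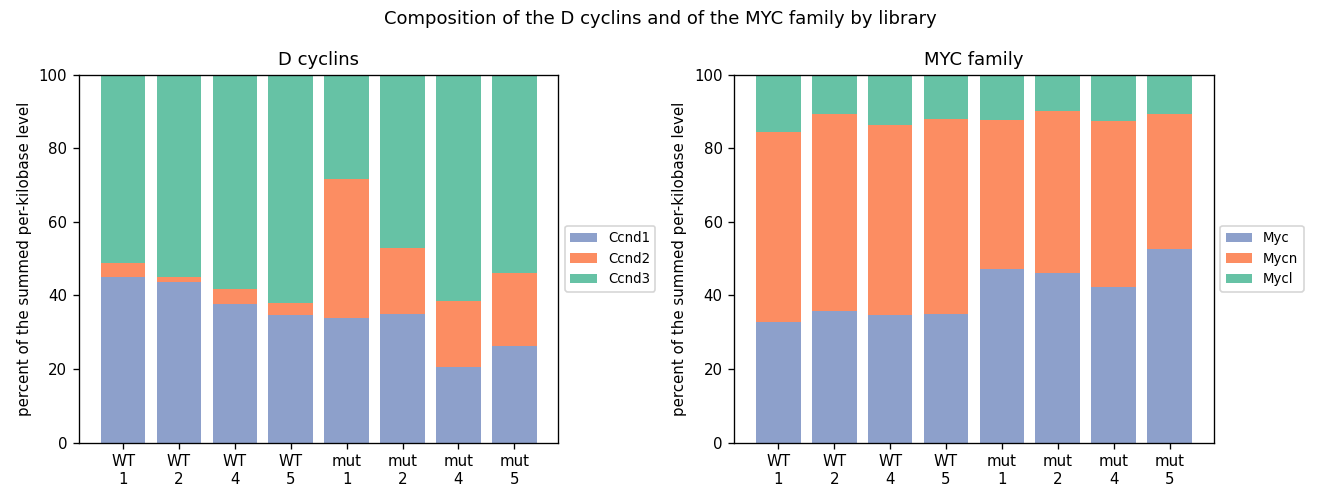
Stacked bars give each gene's percent of the summed per-kilobase level of the 3 D cyclins (left) and of the 3 MYC family genes (right) in each library, WT left and mutants (mut) right, without error bars since each bar is 1 library. Ccnd2 takes 17.9% to 38% in the mutants against 1.5% to 4.29% in WT, and the Mycn share is lower in each mutant than in any WT library.

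Ccne1, which encodes cyclin E1, the partner of CDK2 at the entry into S phase (ENSMUSG00000002068.16, chromosome 7, 38097984 to 38107534, minus strand), had 10771, 13160, 11110 and 11540 in WT. In the mutants it had 6395, 8768, 6947 and 9838. The groups did not overlap, but the highest mutant was close to the lowest WT library, which was 1.09 times as high. The means were 11645 ± 1058 and 7987 ± 1597 (n = 4 each). This was a 1.48-fold fall (log2 fold change -0.56, SE 0.13, limma adjusted p = 0.022). The call was lost without WT replicate 2 (log2 fold change -0.50, adjusted p = 0.057), WT replicate 5 (-0.56, 0.0555) or mutant replicate 4 (-0.50, 0.0553), and over the Y-positive libraries (-0.48, 0.164), each with fewer libraries and a fall of similar size. Over all settings it ranged from 0.00154 to 0.256, the latter with the decidua covariate.

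Among the MYC family, Mycn and Mycl fell and Myc did not pass. Mycn, which encodes N-MYC (ENSMUSG00000037169.14, chromosome 12, 12936093 to 12941914, minus strand), had 11806, 12287, 10687 and 11347 in WT and 6989, 8862, 6711 and 7197 in the mutants. The lowest WT value was 1.21 times the highest mutant value, and spread was small in both groups. The means were 11532 ± 681 and 7440 ± 969 (n = 4 each), a 1.56-fold fall (log2 fold change -0.64, SE 0.09, limma adjusted p = 0.00192) with a 95% interval of 1.35-fold to 1.79-fold. The call held when any 1 library was left out (limma adjusted p 0.000512 to 0.00881) and was lost with the decidua covariate (limma adjusted p = 0.146, the largest over all settings).

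Mycl, which encodes L-MYC (chromosome 4, 122995652 to 123002485, plus strand), had 4366, 3033, 3475 and 3177 in WT and 2591, 2385, 2259 and 2520 in the mutants. The mutants were closer to each other than the WT libraries were. The means were 3513 ± 598 and 2439 ± 147, a 1.43-fold fall (log2 fold change -0.51, SE 0.11, limma adjusted p = 0.0156). The Mycl call ended when mutant replicates 4 and 5 were both left out, where the fall was 1.4-fold (log2 fold change -0.48, limma adjusted p = 0.0903), and with the decidua covariate (0.217, from 0.000383 upward over all settings).

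Myc, the founding member (chromosome 15, 61985391 to 61990374, plus strand), had 6187, 6783, 5952 and 6151 in WT and 6741, 7593, 5177 and 8444 in the mutants. The mutant values lay on both sides of the WT range. The log2 fold change was 0.14 (SE 0.13, limma adjusted p = 0.557), with a 95% interval from -0.17 to 0.44, or 0.891-fold to 1.35-fold. Per kilobase, Mycn exceeded Myc in all 4 WT libraries, whereas Myc exceeded Mycn in 3 of 4 mutants. That order in the mutants depends on the division by exon length. Without it Myc exceeded Mycn only in mutant replicate 5 (8444 against 7197). Mycn made up 52.4% ± 0.977 of the summed MYC family level in WT and 41.7% ± 3.81 in the mutants, and Myc 34.6% ± 1.26 and 47% ± 4.22. The summed level was 6677 ± 336 per kilobase in WT and 5434 ± 718 in the mutants.

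**Figure D4:**
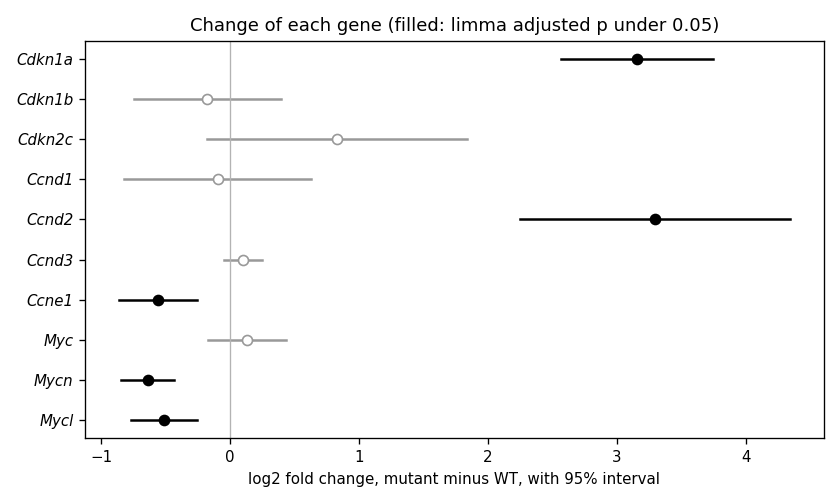
Points are the log2 fold change of each gene, mutant minus WT, and lines its 95% interval from limma over 8 libraries. Filled points passed the threshold. Ccnd2 (3.30) and Cdkn1a (3.15) stand far from the other genes, and Ccne1, Mycn and Mycl lie between -0.64 and -0.51.

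Per kilobase of exon, the WT order of levels ran from Ccne1 (4375 ± 397 scaled counts per kilobase) through Mycn (3500 ± 207), Myc (2307 ± 132) and Ccnd3 (1226 ± 42.7) to Ccnd1 (878 ± 166) and Mycl (869.9 ± 148). Far lower came Ccnd2 (69.7 ± 27.2), Cdkn1a (52.9 ± 15.7), Cdkn2c (26.1 ± 3.19) and Cdkn1b (20.1 ± 3.92). Ccnd1 and Mycl, and Ccnd2 and Cdkn1a, lay within their spread of each other. In the mutants Ccnd2 reached 753 ± 564 and Cdkn1a 474 ± 153 per kilobase, next to Ccnd1 at 892 ± 430 and Mycl at 604 ± 36.4. Ccne1 (3000 ± 600), Myc (2572 ± 513) and Mycn (2258 ± 294) overlapped within 1 SD there. Cdkn1b was the lowest of the 10 in both genotypes, at 17.9 ± 4.67 in the mutants.

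Genes whose profile over the 8 libraries was most like each of the 5 that passed were picked by the root mean square difference of log2 values, each gene centred on its own mean. Among 13762 genes compared, the profile of Apcdd1, a membrane inhibitor of WNT signalling, was closest to Ccnd2 (difference 0.24 log2 units), followed by L1cam (0.30) and Fbn2 (0.35). Apcdd1 was 6285 in mutant replicate 1 and 1569 to 2628 in the other mutants, against 220 to 433 in WT (this likeness to Ccnd2 is what chose it). The nearest to Cdkn1a were less close: Lypd2 (0.37), Ascl4 (0.40) and Siah2 (0.42), a ubiquitin ligase gene. Lypd2 and Ascl4 are low, with WT means of 5.6 and 3.91. Nearest to Mycn were Kdm4c, Rasal2 and Stx3 (0.08 each). Those nearest to Mycl were Pphln1 (0.07), Ccp110 (0.09) and Asxl1 (0.10), and those nearest to Ccne1 were Rps4l, Tspan33 (0.10 each) and the epithelial adhesion gene Epcam (0.11). Among the 10 genes themselves, Ccne1 and Mycn were the most alike pair (0.17).

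Around Cdkn1a, none of the other p53 targets listed passed as higher over all libraries. Of 16 tested genes for p53 and its targets, none rose and 1 fell with limma, edgeR or DESeq2. Of all genes, limma called 8.03% higher and 7.55% lower, edgeR 8.08% and 7.49%, and DESeq2 11.8% and 10.3%. In a list of 16 genes such counts lie near those shares. In this list 3 had an unadjusted limma p under 0.05. Over the 6 Y-positive libraries 1 rose, Phlda3, and none fell, against 3.38% and 3.16% of all genes. Phlda3 had 516, 1367, 507 and 1158 in WT and 1231, 1292, 2001 and 1382 in the mutants (log2 fold change 0.85, limma adjusted p = 0.126 over all libraries), with the higher WT values in replicates 2 and 5, as in Cdkn1a. The list median log2 fold change was -0.11, against 0.00 over all genes tested. Trp53 itself had means of 8254 ± 800 and 7226 ± 1046, WT first (limma adjusted p = 0.279). Mdm2, the p53 target that degrades p53, was 3599 ± 215 and 3204 ± 237 (limma adjusted p = 0.17). The gene that fell was Aen, an exonuclease gene (log2 fold change -0.27, limma adjusted p = 0.0491). That call was lost without any 1 library other than mutant replicate 1 (limma adjusted p 0.0154 to 0.739 over all settings). Of 3 other tested CDK inhibitors, Cdkn1c, an imprinted gene that encodes p57, averaged 3508 ± 1392 in WT and 6049 ± 793 in the mutants, a rise of 0.86 on the log2 scale (limma adjusted p = 0.0423). It had 2778, 5347, 2153 and 3753 in WT and 5658, 5726, 5577 and 7234 in the mutants. Its call was lost with edgeR (0.0629) and without any 1 library other than WT replicate 2 (0.0046 to 0.509 over all settings).

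Of 12 CDK, later cyclin and CDC25 genes tested, 2 rose and none fell, against 8.03% and 7.55% of all genes: Ccnb2, a mitotic cyclin gene (1.16-fold, limma adjusted p = 0.0195), and Ccne2, the other E cyclin (1.21-fold, limma adjusted p = 0.0432). Ccne2 had 3090, 3390, 3325 and 3626 in WT and 4533, 3967, 3842 and 3879 in the mutants, the opposite direction to Ccne1. Both calls were lost with median centring (adjusted p = 0.207 for Ccne2 and 0.171 for Ccnb2). Leaving out WT replicate 1, 2 or 4 ended each, and for Ccne2 so did leaving out mutant replicate 1, 2 or 5. In this list 8 of 12 had an unadjusted limma p under 0.05, of which Cdk2, Ccna2, Ccnb1, Ccnf and Cdc25a had lower means in the mutants (log2 fold changes -0.25 to -0.16), and the list median was -0.06. With median centring none rose and 1 fell, against 6.6% and 10.2% of all genes. With DESeq2 2 rose and 2 fell (11.8% and 10.3%), and over the Y-positive libraries none passed (3.38% and 3.16%). Cdk4, the main D cyclin partner, was 27784 ± 541 and 28048 ± 1976, and Cdk6 ranged from 367 to 522 and from 466 to 779 (limma adjusted p = 0.924 and 0.125). In the pocket protein and E2F list 3 of 13 fell, against 7.55% of all genes, and none rose: Tfdp1, the dimer partner of E2F proteins (1.23-fold, limma adjusted p = 0.00353), E2f4 (1.38-fold, 0.00379) and E2f2 (1.8-fold, 0.041). Tfdp1 was 7686 to 7940 in WT and 6198 to 6516 in the mutants. Tfdp1 and E2f4 lost their calls only with the decidua covariate (adjusted p = 0.154 and 0.233), and E2f2 lost its call without any 1 library other than WT replicate 1. DESeq2 called 2 higher and 3 lower in this list, against 11.8% and 10.3% of all genes. Of 12 mitosis genes 2 fell, against the same 7.55%, and none rose: Bub1b, a spindle checkpoint gene (1.23-fold, limma adjusted p = 0.014), and Plk1, a mitotic kinase gene (1.19-fold, 0.0495). The Plk1 call was lost without any 1 library other than mutant replicate 2. Neither passed over the Y-positive libraries (adjusted p = 0.0566 and 0.113) or without mutant replicates 4 and 5 (0.0889 and 0.26). Mki67, the proliferation marker, was 3920 ± 564 and 3840 ± 481.

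Around MYC, genes of ribosome production and growth that are often used as MYC targets were lower. Of 20 tested, 9 fell and none rose (list median log2 fold change -0.25, against 0.00 over all genes, of which 7.55% fell). Nop56, which encodes a core protein of small nucleolar ribonucleoproteins, averaged 16315 ± 965 in WT and 12776 ± 319 in the mutants, a fall of 0.35 on the log2 scale (SE 0.06, limma adjusted p = 0.0033). Gnl3, the nucleostemin gene, fell 1.23-fold (limma adjusted p = 0.00619), Wdr43 1.22-fold (0.0132) and Nop58 1.19-fold (0.0122). All 4 had lower values in each mutant than in any WT library. DESeq2 called 11 lower, against 10.3% of all genes. The count was 4 without mutant replicates 4 and 5 (4.63% of all genes), and 2 over the Y-positive libraries (3.16%). With the decidua covariate, where 1.43% of all genes were called lower, it was 0. Of the 4 genes named, Nop56 kept its call over the Y-positive libraries and Gnl3, Wdr43 and Nop58 did not (limma adjusted p = 0.0728, 0.133 and 0.107). In the MAX and MLX network 1 of 11 rose, against 8.03% of all genes, and none fell. That was Mxd4, a MAX partner that represses MYC sites, with 160, 160, 130 and 144 in WT and 298, 204, 550 and 360 in the mutants (2.23-fold, limma adjusted p = 0.0212). It was highest in mutant replicates 4 and 5, where Prl8a2 was highest, and was 0.74 on the log2 scale without them against 1.16 (adjusted p = 0.093). Leaving out WT replicate 4 or 5 or mutant replicate 5 also ended the call (0.0615, 0.0558 and 0.0562), and the log2 fold change with the decidua covariate was 0.18. Max itself was 2196 ± 216 and 2038 ± 330.

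Among 13 genes for turnover of cyclins, p27 and MYC, 2 fell, against 7.55% of all genes, and none rose. Usp28, a deubiquitinase that opposes FBXW7 and thereby stabilises MYC proteins, had 4655, 4090, 4888 and 4550 in WT. In the mutants it had 1496, 1122, 1124 and 1144. The lowest WT library was far above the highest mutant. This was a 3.74-fold fall (log2 fold change -1.90, SE 0.11), and it passed under every setting tried (limma adjusted p at most 0.00389). Fbxw7, the ligase subunit that marks cyclin E and MYC proteins for degradation, was 982 ± 62.6 and 1089.9 ± 97.4 (limma adjusted p = 0.342). Skp2, which does so for p27, was 5852 ± 328 and 5507 ± 572 (limma adjusted p = 0.521). The other was Cul1, whose 1.12-fold fall (limma adjusted p = 0.0497) was lost when any 1 library was left out.

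**Figure D5:**
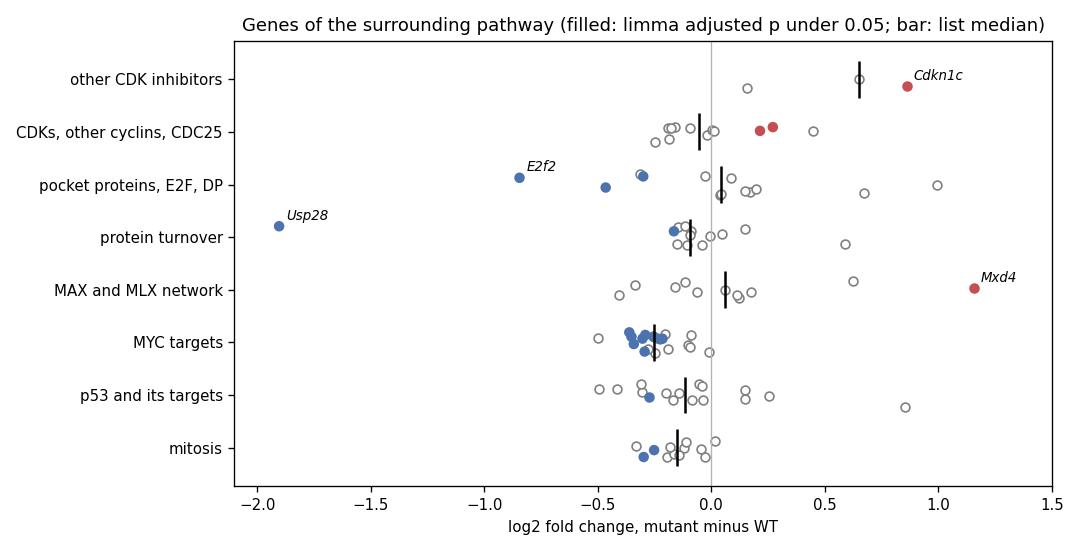
Each point is the log2 fold change of 1 tested gene, mutant minus WT, in 8 lists around the 10 genes, and bars are list medians. Filled points passed the limma threshold, and vertical jitter only separates points. The p53 list has 1 filled point of 16 and it is lower, the MYC target list has 9 of 20, each lower, and Usp28 at -1.90 stands apart. Of all genes tested, 8.03% passed as higher and 7.55% as lower.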

How the data were processed

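RNA of whole embryos was amplified in 12 cycles (SMART-Seq v4), a chemistry that keeps no strand, per the labels' protocols. The tools named are cutadapt 1.6, STAR 2.5.0a, HTSeq 0.5.3 and DESeq on mm10, per the submitters' processing notes. No source used here gives the options of these tools or the gene models counted. The deposited values are a signal, gene counts that the authors divided by 1 size factor per library. They are whole multiples of 1 step in each column (100% of values within 0.01 of a whole read), so reads were recovered. PCR reads without molecular identifiers cover counting error only. No replicate pair agreed within sampling noise (chi-square per degree of freedom 18.8 to 82.6).

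The members and gene lists were chosen with earlier results of these data known. A gene was tested if 4 or more libraries reached a scaled count of 10. limma 3.58.1 in R 4.3.3 used log2(value + 1) with a trended prior, two-sided, after a check on simulated data. The log2 scale understates changes of low genes. Alternatives included edgeR 4.0.16 and DESeq2 1.42.0 on recovered reads. Text names all 10 members, up to 4 called genes per list with the smallest p, the 3 most alike profiles (predicted genes left out), and others chosen after their values were seen (Trp53, Mdm2, Cdk4, Cdk6, Mki67, Max, Fbxw7, Skp2, Phlda3, 5 lower CDK and cyclin genes, and the mesoderm and the decidua markers). Exon lengths and positions are those of GENCODE M21 on GRCm38, as unions of all isoforms, which need not be the release used for counting.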

Additional observations from a re-analysis of the deposited data

Results flagged for a closer look

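In 4 of 64 groups of 4 libraries examined, 1 library lay apart from the other 3 by more than Dixon's 95% critical value, where chance flags about 1 in 20 groups. Ccnd2 was 14982 in mutant replicate 1 against 3552 to 5042 in the other mutants, and its share of the summed D cyclin level per kilobase was 38% there against 17.9% to 19.6%. Those flags rest on the same library and gene. Mutant replicate 1 also had the highest Axin2 (539), the highest summed mesoderm markers (52671) and the lowest summed epiblast markers (29352) of the mutants. Single markers were split. Otx2, Fgf5, Utf1, Tdgf1 and Sox2 were lowest of the mutants there, and Pou5f1 and Nanog highest. Among mesoderm markers Foxf1, Hand1 and T were highest there, and Eomes, Mixl1, Tbx6 and Msgn1 lowest. The part of these levels in the Ccnd2 values was not tested. Without mutant replicate 1 the log2 fold change of Ccnd2 was 2.85. Cdkn1c was 7234 in mutant replicate 5 against 5577 to 5726 in the others. Usp28 was 1496 in mutant replicate 1 against 1122 to 1144.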

How the results depend on the processing

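Cdkn1a and Ccnd2 rose under all 21 alternatives, and Mycn fell under all with its call lost once. Leaving out 1 library at a time gave 853 to 1295 higher and 734 to 1144 lower genes. Against 1253 higher and 1178 lower genes in all libraries, the 6 libraries with Y-linked transcripts gave 528 and 493, leaving out mutant replicates 4 and 5 gave 707 and 723, and the decidua covariate 283 and 223. With that covariate 0 of the 10 genes fell, where Ccne1, Mycn and Mycl kept log2 fold changes of -0.60, -0.49 and -0.55. That covariate separates the genotypes completely, so the level of the decidua markers and genotype cannot be told apart there. Median centring made 39.3% of calls higher against 51.5%, with the calls among the 10 genes as before. The sign of 2 uncalled genes turned: Cdkn2c had -0.0204 when mutant replicates 4 and 5 were dropped and -0.798 under the covariate, and Ccnd1 had 0.0133 with edgeR, 0.0232 with DESeq2, -0.36 to 0.21 over single libraries left out (0.01 without WT replicate 1, 0.21 without mutant replicate 4), 0.48 without mutant replicates 4 and 5 and 0.81 with the covariate. Without division by exon length, Mycn was 54.1% of the MYC family in WT against 52.4%. In the mutants Mycn was 44.2% and Myc 41.2% without that division, against 41.7% and 47% with it, so their order turned. Deviations of same-numbered libraries correlated at -0.19 to -0.04 across genes, and 0 of 4 WT libraries correlated best with their own number. With so few libraries this cannot exclude litters or batches shared by number. The replicate block gave 910 higher and 789 lower genes, with 2 and 3 of the 10. The block lowered the SE of Ccnd1 from 0.32 to 0.20 and of Ccnd2 from 0.46 to 0.35. It raised that of Cdkn1a from 0.26 to 0.31. Depth limits Cdkn2c and Cdkn1b most, with as few as 54 and 60 reads in a library, where counting error can make up much of the WT spread (coefficients of variation 12.2% and 19.6%).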
